A study of Homo sapiens with 12 samples.

Results

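The 10 genes described here encode plasma proteins of the acute phase response that the liver makes: haptoglobin (HP), hemopexin (HPX), ceruloplasmin (CP), the orosomucoids ORM1 and ORM2, the serum amyloid A proteins SAA1, SAA2 and SAA4, lipopolysaccharide binding protein (LBP) and the inter-alpha-trypsin inhibitor heavy chain ITIH4. They were chosen by gene symbol, and all 10 were found among the 16705 genes of the deposited table. Of the 10, 6 had a mean of at least 0.5 FPKM (fragments per transcript length and sequencing depth) over the 12 libraries and were tested (HP, HPX, CP, ORM1, ORM2 and SAA4), whereas SAA1, SAA2, LBP and ITIH4 lay below that level.

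RNA was sequenced from human liver spheroids that combined C3A cells, a clone of the HepG2 hepatoma line, with LX-2 cells, an immortalized line made from activated hepatic stellate cells. The 4 groups of 3 libraries were untreated spheroids at 24 h, spheroids exposed to 1% total parenteral nutrition (TPN) for 24 h, untreated spheroids at 144 h and spheroids exposed to 1% TPN for 144 h. TPN is the intravenous feed of amino acids, electrolytes, glucose, lipid emulsion, trace elements and vitamins, and here it was added to the culture medium. All groups share both cell lines and the serum-containing medium, each line comes from a single donor, many spheroids were pooled for each library, and the study describes 3 independent experiments.

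Library totals ran from 561657 to 583722 FPKM, a unit already divided by depth. The steps between low FPKM values in 37 short genes corresponded to about 1.85e+07 fragments per library (1.79e+07 to 1.89e+07). These genes were kept because their values in all libraries lay near multiples of a shared step. Neither value can therefore show whether a library stood apart in depth. Of the hepatocyte markers, ALB, APOB, APOA1, HNF4A and SLC27A2 were among those tested and CYP7A1 was at or below 0.04 FPKM in every library. The summed hepatocyte markers lay between 7589 and 7869 FPKM in untreated and between 7003 and 7051 in TPN libraries at 24 h, and between 8711 and 9457 in untreated and between 6222 and 6704 in TPN libraries at 144 h. The summed stellate cell markers lay between 96.0 and 101 FPKM in untreated and between 82.8 and 86.8 in TPN libraries at 24 h. At 144 h they lay between 54.3 and 59.6 in untreated and between 49.0 and 51.4 in TPN libraries. ACTA2 made up most of this sum, with a mean of 57.8 FPKM in untreated libraries at 24 h and 47.9 at 144 h. Other stellate cell markers fell further there, such as COL1A1 from 15.1 to 1.92 FPKM and VIM from 15.6 to 2.44 FPKM. Of the 7 tested, 6 were called lower over time in untreated spheroids and PDGFRB did not pass, beside 52.4% of all genes tested called lower. Their median log2 fold change was -2.11. Of the macrophage markers only CD68, which other cells express as well, reached 1 FPKM, and the 4 endothelial markers were all below 1 FPKM.

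In the acute phase response, cytokines of the IL-6 family act through the shared receptor subunit gp130 (IL6ST), JAK kinases and the transcription factor STAT3, while IL-1 and TNF act through NF-kB and the C/EBP factors. Hepatocytes then secrete more of the positive acute phase proteins and less of the negative ones such as albumin. Haptoglobin captures free hemoglobin, hemopexin captures free heme and ceruloplasmin carries copper and oxidizes ferrous iron. Orosomucoids bind drugs and lipids, SAA1 and SAA2 are the strongly inducible amyloid A proteins of high density lipoprotein while SAA4 is the constitutive form, LBP hands bacterial lipopolysaccharide to CD14, and ITIH4 is a plasma glycoprotein of the inter-alpha-trypsin inhibitor family.

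The RefSeq tables (build GRCh38.p14) held the stretch upstream of the gene start for 4 of the 10 genes, HPX, ORM1, SAA4 and ITIH4. The stretches of the tested genes among them are shown because they let the letters next to the start be read beside genes that responded to TPN in different ways. The search covered both strands of the 250 upstream bases for a STAT motif (TTCNNNGAA), a C/EBP motif (TTGCNNAA), the core of the IL-6 response element (CTGGGAA) and an NF-kB motif, and capitals mark the matches.
HPX, chr11:6440988-6441237, minus strand: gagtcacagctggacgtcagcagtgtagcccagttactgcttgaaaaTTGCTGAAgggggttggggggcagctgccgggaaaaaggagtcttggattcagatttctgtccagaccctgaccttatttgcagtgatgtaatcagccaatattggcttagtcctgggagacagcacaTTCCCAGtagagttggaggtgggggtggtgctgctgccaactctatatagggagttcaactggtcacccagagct
ORM1, chr9:114322848-114323097, plus strand: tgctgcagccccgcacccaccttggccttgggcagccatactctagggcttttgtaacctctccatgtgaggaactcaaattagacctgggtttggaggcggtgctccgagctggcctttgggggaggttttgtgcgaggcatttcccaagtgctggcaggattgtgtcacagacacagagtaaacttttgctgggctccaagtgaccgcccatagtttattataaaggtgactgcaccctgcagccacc
SAA4, chr11:18236803-18237052, minus strand: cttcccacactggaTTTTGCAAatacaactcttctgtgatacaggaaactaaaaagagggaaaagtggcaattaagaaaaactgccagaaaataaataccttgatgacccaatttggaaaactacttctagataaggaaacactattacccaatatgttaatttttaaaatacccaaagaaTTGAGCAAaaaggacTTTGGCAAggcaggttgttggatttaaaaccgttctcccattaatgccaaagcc

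The HPX stretch held a C/EBP match from -203 to -196 and, on the opposite strand, an IL-6 response core from -75 to -69, counted back from the gene start. The SAA4 stretch held 3 C/EBP matches, all on the opposite strand, at -236 to -229, -69 to -62 and -54 to -47. The ORM1 stretch held 0 matches to these 4 motifs. The ITIH4 stretch, which is not printed, held a STAT match from -74 to -66 that overlapped an IL-6 response core on the opposite strand from -74 to -68. A STAT match was found in 6.57% of the 35116 promoters in the table, a C/EBP match in 9.05%, an IL-6 response core in 9.15% and an NF-kB match in 0.527%. These are matches of letters, and binding was not measured. For ITIH4 and in part for HPX, the stretch lies inside the longer gene span that the deposited table gives.

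After 144 h of exposure, transcripts of the heme- and metal-binding proteins were higher with TPN. HP was 2.12-fold, HPX 1.82-fold and CP 1.28-fold the untreated level. After 24 h, HP was lower instead, at 0.786 of the untreated level, and the orosomucoid transcripts differed little between exposed and untreated spheroids at either time. SAA1, SAA2, LBP and ITIH4 stayed at or below 0.66 FPKM in every library.

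**Figure D1:**
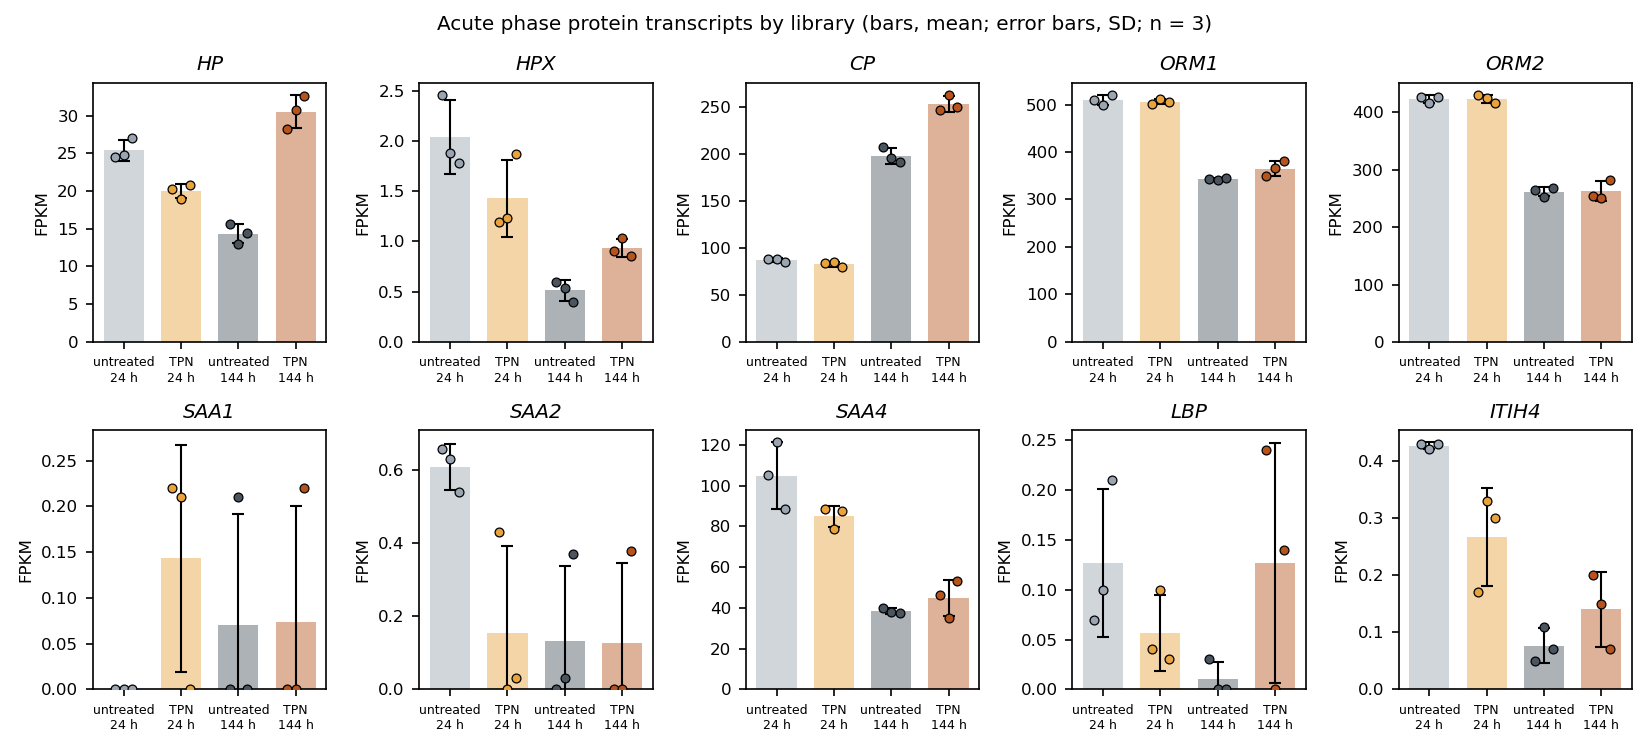
FPKM (vertical axis, from 0, with its own scale for each gene) of the 10 acute phase genes in untreated and TPN spheroids at 24 h and 144 h, with bars for means, error bars for SD and 1 point per library (n = 3). HP in the TPN libraries at 144 h lies above every other group, CP is higher at 144 h than at 24 h in both treatments, and SAA1, SAA2, LBP and ITIH4 stay near 0.

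HP, the hemoglobin scavenger (gene 3240, chr16:72054505-72061055 in GRCh38.p13), gave 24.45, 24.75 and 26.97 FPKM in the untreated and 20.26, 18.90 and 20.74 FPKM in the TPN libraries at 24 h. At 144 h it gave 15.62, 13.01 and 14.46 FPKM without and 28.18, 30.79 and 32.59 FPKM with TPN. None of the 4 groups overlapped, and their order from high to low was TPN 144 h, untreated 24 h, TPN 24 h and untreated 144 h. At 24 h, HP was therefore lower with TPN (25.4 ± 1.38 against 19.97 ± 0.954 FPKM, mean ± SD, n = 3; log2 fold change -0.34, SE 0.07, limma adjusted p = 0.00531). It was the only 1 of the 6 tested genes to pass the test at 24 h, whereas of the 11713 genes tested 5.04% were called higher and 5.46% lower. The TPN libraries lay below the untreated ones without overlap in 3 of the 6, HP, CP and SAA4, as in 15.9% of all genes tested. At 144 h, HP was higher with TPN (14.4 ± 1.31 against 30.5 ± 2.22 FPKM, n = 3; log2 fold change 1.08, SE 0.07, limma adjusted p = 2.54e-08), where 24.2% of all genes tested were called higher and 28.3% lower. Of the 6 tested genes, 4 were called higher at 144 h and 0 lower, HP, HPX, CP and ORM1, with 2 of them, HP and HPX, also over the study's fold-change threshold of 0.58 on the log2 scale, which 5.75% of all genes tested passed in that direction. The TPN libraries lay above the untreated ones without overlap in the same 4, as in 27.2% of all genes tested.

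HPX, the heme scavenger (gene 3263, chr11:6431049-6441066), was expressed at a low level. Untreated libraries gave 2.46, 1.88 and 1.78 FPKM and TPN libraries 1.19, 1.23 and 1.87 FPKM at 24 h, with 1 TPN library inside the untreated range. At 144 h, untreated libraries gave 0.60, 0.54 and 0.40 FPKM and TPN libraries 0.91, 1.03 and 0.86 FPKM, without overlap. The mean at 144 h thus rose from 0.513 ± 0.103 to 0.933 ± 0.0874 FPKM (n = 3; log2 fold change 0.76, SE 0.19, limma adjusted p = 0.00341). At this low level the size depends on the value added before taking logs, and with 1 in place of 0.1 it was 0.35 (limma adjusted p = 0.0133). These means correspond to an estimated 12.4 and 22.6 fragments, so the values rest on few fragments. At 24 h the log2 fold change was -0.50 (SE 0.19, limma adjusted p = 0.111), and it passed the test only when TPN replicate 3 was left out (-0.69, limma adjusted p = 0.0308).

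CP, the copper-carrying ferroxidase (gene 1356, chr3:149162410-149222008), was the only tested member with more transcript at 144 h than at 24 h in untreated spheroids. It gave 88.49, 88.01 and 84.94 FPKM without and 83.73, 84.68 and 79.61 FPKM with TPN at 24 h, and the groups did not overlap although the difference did not pass the test (log2 fold change -0.08, SE 0.04, limma adjusted p = 0.229). At 144 h, it gave 207.43, 195.46 and 191.48 FPKM without and 246.90, 263.14 and 250.35 FPKM with TPN. All TPN libraries lay above all untreated ones, and CP rose from 198 ± 8.30 to 253 ± 8.56 FPKM (n = 3; log2 fold change 0.36, SE 0.04, limma adjusted p = 2.87e-06).

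The orosomucoid genes ORM1 (gene 5004, chr9:114323098-114326479) and ORM2 (gene 5005, chr9:114329869-114333251) lie next to each other and gave the 2 highest FPKM values of the 10 genes in every library except TPN replicate 2 at 144 h, where CP stood above ORM2. ORM1 ranked 153 by mean FPKM among the 16705 genes in untreated spheroids at 24 h and 214 at 144 h. It gave 509.16, 498.57 and 520.35 FPKM without and 501.75, 511.30 and 505.52 FPKM with TPN at 24 h, and 343.42, 340.79 and 344.68 FPKM without and 348.81, 365.25 and 381.63 FPKM with TPN at 144 h. The 144 h groups did not overlap, and the small difference passed the test (log2 fold change 0.09, SE 0.03, limma adjusted p = 0.025). That call was lost without untreated replicate 1 (0.09, limma adjusted p = 0.0511) or untreated replicate 2 (0.09, limma adjusted p = 0.0643). It was also lost without TPN replicate 2 (0.09, limma adjusted p = 0.0559) or TPN replicate 3 (0.06, limma adjusted p = 0.117). In all, it was lost in 6 of 22 alternatives, over which the limma adjusted p ran from 0.00424 to 0.117. ORM2 gave 427.78, 415.70 and 426.28 FPKM without and 430.30, 424.75 and 416.79 FPKM with TPN at 24 h, and 264.68, 253.11 and 268.18 FPKM without and 254.39, 250.95 and 282.34 FPKM with TPN at 144 h. Its groups overlapped at both times, and the 95% interval of the log2 fold change ran from -0.08 to 0.09 at 24 h and at 144 h.

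Fragments of ORM1 and ORM2 can be shared between the genes, because their reference transcripts were identical in 95.9% of 759 aligned bases, with 1 stretch of 242 identical bases. The sum of both genes, which does not depend on how fragments were split, was 933 ± 16.6 without and 930 ± 7.07 FPKM with TPN at 24 h (log2 fold change -0.00, 95% interval -0.07 to 0.07, n = 3, limma adjusted p = 0.963). At 144 h it was 605 ± 9.86 without and 628 ± 32.0 FPKM with TPN (0.05, 95% interval -0.02 to 0.12, limma adjusted p = 0.197), so that the call for ORM1 alone was not seen in the sum. ORM1 made up between 56.2% and 57.4% of the sum without TPN and between 57.5% and 59.3% with TPN at 144 h. The ranges of this share did not overlap, and the exact permutation test, two-sided, gave p = 0.1, the smallest value that 3 against 3 libraries allow. HP has a similar neighbour in HPR, a haptoglobin-related gene whose reference transcript was identical to that of HP in 96.1% of 1124 aligned bases. The summed HP and HPR were lower with TPN at 24 h (-0.35 on the log2 scale, SE 0.06, limma adjusted p = 0.00209) and higher at 144 h (0.87, SE 0.06, limma adjusted p = 7.04e-08), as HP was alone.

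SAA4, the constitutive serum amyloid A (gene 6291, chr11:18231355-18236802), was the only 1 of the 3 amyloid genes to be tested. It gave 105.14, 121.25 and 88.66 FPKM without and 88.35, 79.00 and 87.44 FPKM with TPN at 24 h, and 40.04, 37.88 and 37.39 FPKM without and 46.37, 35.31 and 52.99 FPKM with TPN at 144 h. At 24 h the groups were separated by less than 1 FPKM, and at 144 h they overlapped. Neither log2 fold change passed the test, with -0.30 (95% interval -0.57 to -0.03, limma adjusted p = 0.164) at 24 h and 0.20 (-0.06 to 0.47, limma adjusted p = 0.187) at 144 h. Without TPN replicate 2, the library with the lowest value, the value at 144 h was 0.37 (limma adjusted p = 0.00992).

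SAA1 (gene 6288) and SAA2 (gene 6289, chr11:18238236-18248668), whose reference transcripts were identical in 95.4% of 518 aligned bases, were close to undetected. SAA1 was at 0 in 8 of the 12 libraries and at 0.21 or 0.22 FPKM in the other 4, which is the value of 1 fragment (about 0.215 FPKM). SAA2 gave 0.66, 0.63 and 0.54 FPKM in untreated and 0.43, 0 and 0.03 FPKM in TPN libraries at 24 h, and 0, 0.03 and 0.37 FPKM without and 0, 0 and 0.38 FPKM with TPN at 144 h. The TPN libraries lay below the untreated ones without overlap at 24 h, and the groups overlapped at 144 h. The highest SAA2 group mean, that of untreated spheroids at 24 h, corresponds to an estimated 3.5 fragments, and a value of 0.03 is less than the 0.174 FPKM of 1 fragment. RSEM, with which the values were made, can divide a fragment among similar transcripts. In a model of all 16705 genes, no TPN comparison of SAA1 or SAA2 passed the test (limma adjusted p from 0.215 to 1).

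LBP (gene 3929, chr20:38343126-38377013), which hands lipopolysaccharide to its receptors, gave 0.07, 0.10 and 0.21 FPKM without and 0.04, 0.10 and 0.03 FPKM with TPN at 24 h, and 0.03, 0 and 0 FPKM without and 0.24, 0 and 0.14 FPKM with TPN at 144 h. The groups overlapped at both times, and no group mean exceeded an estimated 3.65 fragments. ITIH4 (gene 3700, chr3:52810712-52831479) was also low. It gave 0.43, 0.42 and 0.43 FPKM without and 0.17, 0.33 and 0.30 FPKM with TPN at 24 h, and 0.05, 0.11 and 0.07 FPKM without and 0.20, 0.15 and 0.07 FPKM with TPN at 144 h. The 24 h groups did not overlap and those of 144 h did, but in the model of all 16705 genes neither difference passed (-0.55, limma adjusted p = 0.215, and 0.42, limma adjusted p = 0.188). For LBP the log2 fold change in that model was -0.51 at 24 h (limma adjusted p = 0.553). At 144 h it was 0.88 (95% interval 0.01 to 1.75, limma adjusted p = 0.106). At so few fragments, these values cannot show whether SAA1, SAA2 or LBP differed with TPN.

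A contrast of contrasts asked whether TPN acted on these genes to a different extent after long and short exposure, by subtracting the 24 h log2 fold change from the 144 h one. The difference was 1.43 for HP (SE 0.10, limma adjusted p = 5e-07), 1.26 for HPX (SE 0.26, limma adjusted p = 0.00266, and 0.68 with 1 added in place of 0.1) and 0.43 for CP (SE 0.05, limma adjusted p = 4.9e-05). These heme- and metal-binding proteins all had the higher value at 144 h. SAA4 passed as well (0.50, SE 0.18, limma adjusted p = 0.0466), although its adjusted p ran from 0.00356 to 0.111 over the alternatives and rose above 0.05 when any library was left out except untreated replicate 3 at 24 h and TPN replicate 2 at 144 h (0.0591 to 0.111, with a difference between 0.37 and 0.53). The difference was 0.10 for ORM1 (limma adjusted p = 0.103, and 0.0267 without TPN replicate 1 at 144 h) and -0.00 for ORM2 (95% interval -0.12 to 0.12). In all, 4 of the 6 tested genes were called higher at 144 h and 0 lower, against 14.1% of all genes tested called higher and 16.3% called lower. HP and HPX also passed the fold-change threshold, as 4.2% of all genes tested did in that direction. The median of the 6 genes was -0.19 at 24 h and 0.28 at 144 h, with medians of -0.00 and -0.02 over all genes tested.

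**Figure D2:**
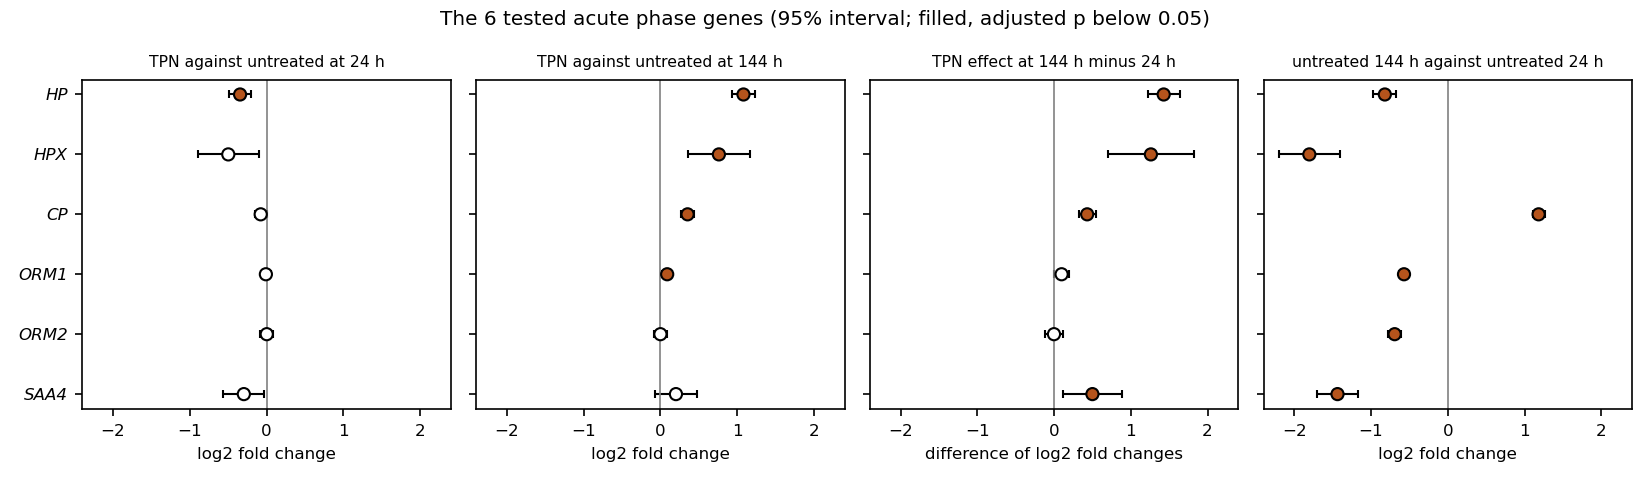
Log2 fold changes (horizontal axis, points) with 95% intervals (bars) of the 6 tested acute phase genes in the 4 comparisons, filled where the limma adjusted p was below 0.05. HP lies left of 0 at 24 h (-0.34) and right of 0 at 144 h (1.08), ORM1 and ORM2 stay near 0 in both, and CP alone lies right of 0 (1.18) in the comparison of untreated spheroids over time.

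The untreated spheroids themselves changed between 24 h and 144 h. This comparison uses the same untreated libraries as the TPN comparisons, so its values are not independent of theirs. All genes tested shifted by a median of -0.18 on the log2 scale here, a shift that was -0.01 after scaling by median ratios, so each value is also given relative to that median. CP rose (log2 fold change 1.18, 1.37 relative to the median, SE 0.04, limma adjusted p = 1.1e-11), and the other 5 tested genes fell. The falls were -1.80 for HPX (-1.62 relative to the median, limma adjusted p = 9.81e-07, and -1.002 before that adjustment with 1 added in place of 0.1), -1.44 for SAA4 (-1.25, limma adjusted p = 1.92e-07), -0.82 for HP (-0.64, limma adjusted p = 1.35e-07), -0.69 for ORM2 (-0.51, limma adjusted p = 3.2e-09) and -0.57 for ORM1 (-0.39, limma adjusted p = 1.78e-09). The untreated groups did not overlap for any of the 6, while over all genes tested the 144 h group lay wholly above in 21.2% and wholly below in 53.7%. Of all genes tested, 20.1% were called higher and 52.4% lower in this comparison, and the same 1 rise and 5 falls were called after median-ratio scaling and after quantile normalization. Among the genes below the filter, ITIH4 (-1.59, limma adjusted p = 0.000113) and LBP (-1.01, limma adjusted p = 0.0492) also fell in the model of all 16705 genes. Their means correspond to an estimated 23.8 and 4.28 fragments for ITIH4 and 3.65 and 0.288 for LBP.

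The level of a gene relative to the other members changed accordingly. In untreated spheroids at 24 h, the order was ORM1, ORM2, SAA4, CP, HP and HPX, with SAA4 and CP separated by less than 1 FPKM between their nearest libraries. With TPN at 24 h, SAA4 (79.0 to 88.35 FPKM) and CP (79.61 to 84.68 FPKM) overlapped. At 144 h, CP stood above SAA4 and HP in both treatments, and with TPN its range of 246.90 to 263.14 FPKM overlapped that of ORM2, 250.95 to 282.34 FPKM.

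Across the 12 libraries, which share 4 groups, the log2 levels of ORM1 and ORM2 had a Pearson correlation of 0.989, ORM2 and CP one of -0.975, and HP and CP one of 0.050, given as a description. The gene whose pattern was most like that of CP was HSPA5, an endoplasmic reticulum chaperone (r = 0.999, n = 12 libraries), followed by SLC1A2, a glutamate transporter, and C5, a complement protein (both r = 0.998). For HP they were TMBIM6 (r = 0.968), ITM2C and TGM2 (both r = 0.946). For HPX they were NETO2, YY1 (both r = 0.968) and MRPS25 (r = 0.967). For ORM1 they were FAM171A1, GPC1 (both r = 0.995) and PSMD2 (r = 0.994), and for ORM2 they were SPR, FAM136A and VCP (each r = 0.996). For SAA4 they were NDUFA5, TMEM41A (both r = 0.980) and CD59 (r = 0.979).

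Other positive acute phase proteins were counted beside these genes. Of 14 listed, 11 were tested, and at 24 h 8 of them were lower with TPN and 0 higher, while at 144 h 6 were higher and 1 lower. Over all genes tested the shares were 5.04% higher and 5.46% lower at 24 h, and 24.2% higher and 28.3% lower at 144 h. SERPINA3, the protease inhibitor alpha-1-antichymotrypsin, gave 518.28, 539.88 and 509.77 FPKM without and 436.57, 433.97 and 433.99 FPKM with TPN at 24 h, and 716.18, 720.29 and 787.50 FPKM without and 1467.78, 1498.55 and 1591.07 FPKM with TPN at 144 h. Like HP, it was lower with TPN at 24 h (-0.26 on the log2 scale, limma adjusted p = 0.000674) and higher at 144 h (1.04, limma adjusted p = 2.13e-10). The fibrinogen chains FGA, FGB and FGG, subunits of the clotting protein, fell by 0.38, 0.58 and 0.32 on the log2 scale at 24 h (limma adjusted p = 1.51e-05, 3.5e-07 and 0.000108). At 144 h FGG rose by 0.39 (limma adjusted p = 1.78e-06) and FGA by 0.23 (limma adjusted p = 0.00017), while FGB did not pass the test (0.06, limma adjusted p = 0.223). The inflammation-induced glycoprotein LRG1 rose by 0.45 at 144 h (limma adjusted p = 2.73e-06). HAMP, the iron hormone hepcidin, was the 1 that fell at 144 h (-2.56, limma adjusted p = 2.15e-10). In the test of the difference between the times, 9 of the 11 had a larger value after the longer exposure and 1 a smaller one, against 14.1% and 16.3% of all genes tested. CRP and APCS were not analysed here.

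Of 9 tested negative acute phase proteins, 5 were lower with TPN at 24 h, and at 144 h 7 were lower and 1 higher, beside 5.46% of all genes tested called lower at 24 h and 28.3% lower and 24.2% higher at 144 h. At 144 h, ALB (albumin) fell by 0.65, TF (the iron carrier transferrin) by 0.59, TTR (transthyretin) by 0.51 and RBP4 (the retinol carrier) by 0.41 on the log2 scale (limma adjusted p from 3.57e-09 to 5.87e-07). All 6 hepatocyte markers tested were called lower with TPN at 144 h as well, but ALB and APOA1 are on both lists. Of 7 tested stellate cell markers 5 were called lower, against 28.3% of all genes tested, and CD68 was higher by 0.41 on the log2 scale. Several stellate cell markers were low at 144 h, with 4 of the 8 listed below 1 FPKM in untreated and 5 in TPN spheroids. COL1A2 was called lower at 0.273 FPKM without and 0.09 with TPN, and COL3A1 at 0.503 without and 0.127 with TPN. Both are in the count of 5 and passed the filter only through the 24 h groups. Fewer cells of a type and less RNA per cell cannot be told apart in these libraries. The part of cell composition in the values of the acute phase genes was not tested.

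**Figure D3:**
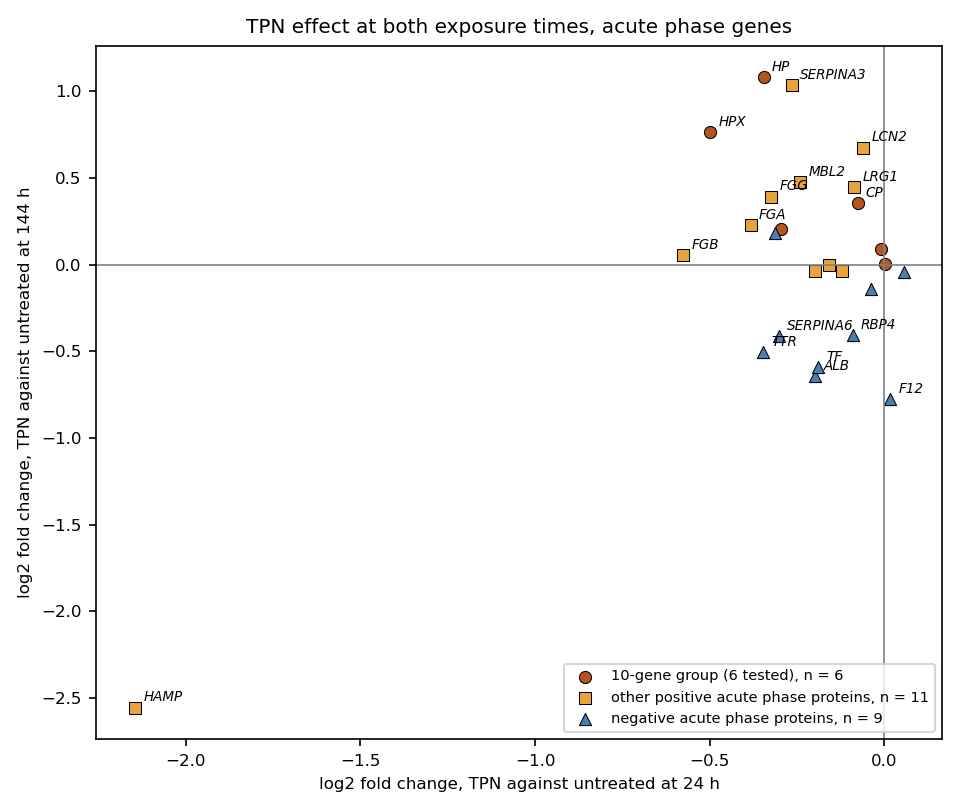
Log2 fold change with TPN at 24 h (horizontal axis) against that at 144 h (vertical axis) for the 6 tested acute phase genes (circles), 11 other positive (squares) and 9 negative acute phase proteins (triangles). HP (-0.34 and 1.08) and SERPINA3 (-0.26 and 1.04) lie at the upper left, ALB, TF and TTR below 0 on both axes, and HAMP (-2.15 and -2.56) far from the rest.

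Among the cytokine genes, LIF, a ligand of the gp130 receptors, gave 3.82, 4.11 and 3.59 FPKM without and 7.60, 7.49 and 7.11 FPKM with TPN at 24 h, and 4.98, 5.31 and 5.01 FPKM without and 14.26, 15.14 and 15.78 FPKM with TPN at 144 h. It was higher with TPN at both times (log2 fold change 0.93, limma adjusted p = 2.86e-07, and 1.54, limma adjusted p = 2.82e-10). IL11, another gp130 ligand, also rose at 144 h (1.47, limma adjusted p = 8.19e-05). Of the 4 ligands tested, 3 were called higher at 144 h, against 24.2% of all genes tested, but the third of them, CLCF1, had 0, 0.22 and 0.04 FPKM without and 0.83, 0.71 and 1.30 FPKM with TPN at 144 h and passed the filter only through the TPN groups, so its test is not given. The classical inducers IL6, IL1A, IL1B and TNF and the gp130 ligand OSM were below the filter, with IL6 at 0.31 FPKM or less in every library. IL22 was not analysed here.

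Of 9 receptors, 2 were higher and 4 lower with TPN at 24 h, and 4 were higher and 2 lower at 144 h. The shares over all genes tested were 5.04% and 5.46% at 24 h and 24.2% and 28.3% at 144 h, so the count of lower receptors at 144 h was near the background. OSMR, the oncostatin M receptor chain, rose from 19.9 to 45.2 FPKM at 144 h (1.18 on the log2 scale, limma adjusted p = 4.15e-10), and IL1R1, the IL-1 receptor, rose by 0.63 on the log2 scale (limma adjusted p = 6.19e-06) after being lower at 24 h (-0.34, limma adjusted p = 0.00664). Of 13 kinases and transcription factors, 5 were higher and 5 lower at 144 h, where 24.2% and 28.3% of all genes tested were. CEBPB (0.69, limma adjusted p = 1.51e-08) and CEBPD (0.86, limma adjusted p = 1.84e-07), the C/EBP factors known from the acute phase response, rose at 144 h, while CEBPA, the C/EBP factor of resting hepatocytes, fell (-0.77, limma adjusted p = 3.73e-08). STAT3 had a higher log2 fold change at 144 h than at 24 h, by 0.43 (limma adjusted p = 3.35e-05).

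Inhibitors of the pathway gave 3 higher and 3 lower of 7 tested at 144 h, beside 24.2% higher and 28.3% lower over all genes tested. SOCS3, the feedback inhibitor of gp130 signalling, gave 0.66, 0.89 and 0.62 FPKM without and 0.51, 0.69 and 0.58 FPKM with TPN at 24 h, and 2.13, 2.23 and 2.93 FPKM without and 4.44, 5.16 and 5.49 FPKM with TPN at 144 h. It was higher with TPN at 144 h (log2 fold change 1.03, SE 0.16, limma adjusted p = 9.05e-05) and overlapped at 24 h. NFKBIA, the inhibitor that holds NF-kB in the cytoplasm, was lower with TPN at both times (-0.29, limma adjusted p = 0.0102, and -0.64, limma adjusted p = 1.81e-06).

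Of 10 tested partner and related genes, 2 were higher and 1 lower at 24 h, and 7 were higher and 1 lower at 144 h. Of all genes tested, 5.04% were higher and 5.46% lower at 24 h, and 24.2% higher and 28.3% lower at 144 h. HMOX1, the heme oxygenase that degrades the heme that haptoglobin and hemopexin bring in, rose at 24 h (97.2 to 283 FPKM, log2 fold change 1.54, limma adjusted p = 3.63e-11) and at 144 h (72.5 to 320 FPKM, 2.14, limma adjusted p = 3.78e-13). SLC40A1, the iron exporter ferroportin that works with ceruloplasmin, rose by 0.36 at 24 h (limma adjusted p = 4.45e-05) and by 1.19 at 144 h (limma adjusted p = 5.22e-11). HPR was lower at 24 h (-0.37, limma adjusted p = 0.00418) with a higher log2 fold change at 144 h (difference 0.69, limma adjusted p = 0.000222), and its fragments can be shared with HP. ITIH2, an ITIH4 relative and heavy chain of inter-alpha-trypsin inhibitor, was the 1 listed gene that fell at 144 h (-0.24, limma adjusted p = 3.79e-05). Of the other heavy chains listed, ITIH3 rose (0.16, limma adjusted p = 0.0107) and ITIH1 did not pass the test (-0.37, limma adjusted p = 0.24). CD163, the hemoglobin scavenger receptor, was not analysed here.

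**Figure D4:**
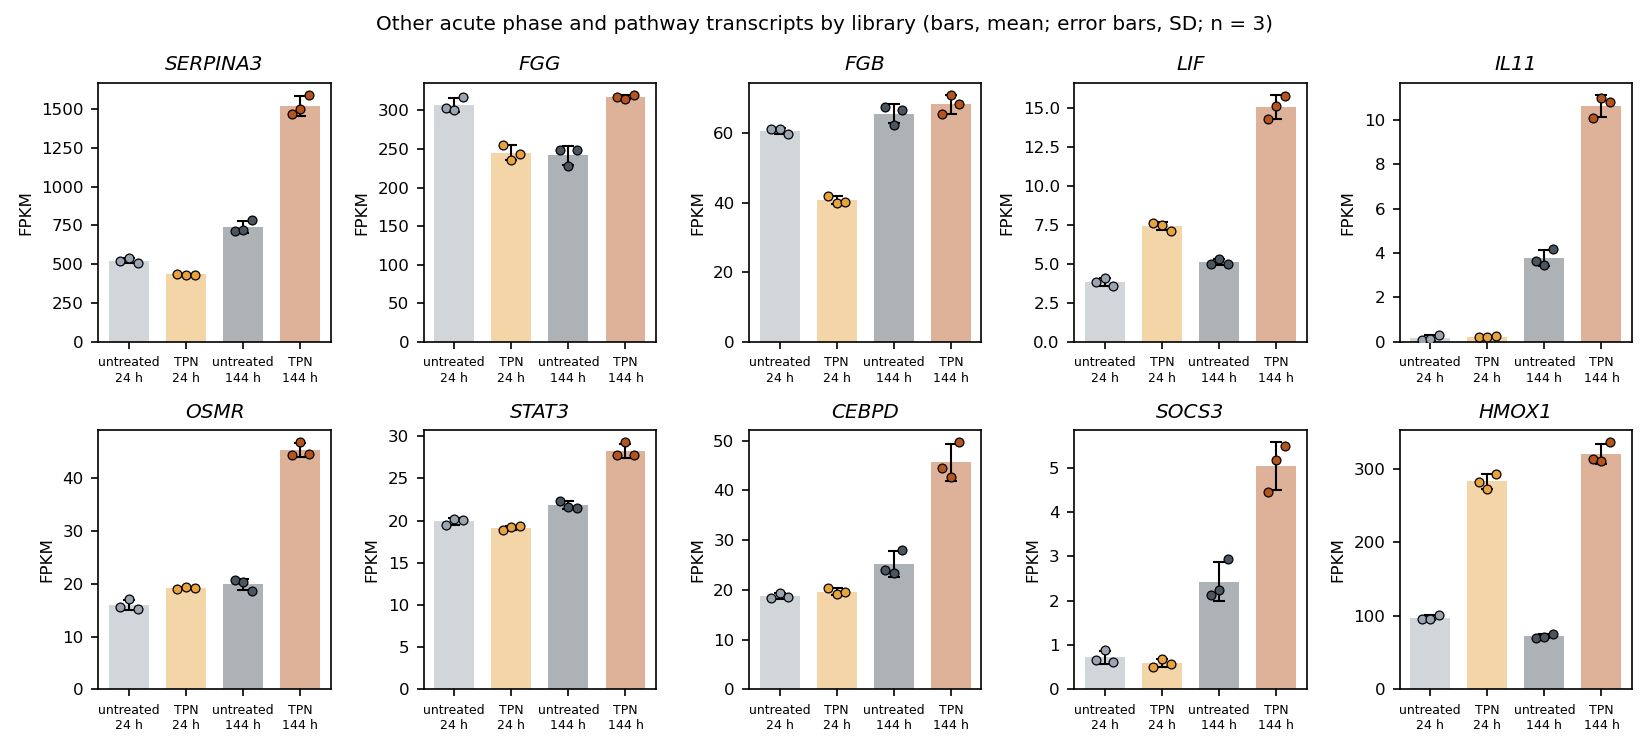
FPKM (vertical axis, from 0, with its own scale for each gene) of 10 other acute phase and pathway genes in the 4 groups, with bars for means, error bars for SD and 1 point per library (n = 3). SERPINA3, LIF, IL11, OSMR, CEBPD and SOCS3 are highest in the TPN libraries at 144 h, FGB is lowest in the TPN libraries at 24 h, and HMOX1 is higher with TPN at both times.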

How the data were processed

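Total RNA of 12 spheroid samples was sequenced on the DNBSEQ platform from strand-specific libraries. According to the study's methods, reads were filtered with SOAPnuke, aligned to GRCh38.p13 with HISAT2 2.0.4 and mapped to transcripts with Bowtie2 2.2.5, and RSEM calculated expression. The authors deposited FPKM values rounded to 2 decimals, and these were used without further scaling. Because read counts were not used here, no count model was fitted. Genes with a mean of at least 0.5 FPKM (about 16 fragments on 2000 bases) entered a linear model of log2(FPKM + 0.1), fitted by limma 3.58.1 under R 4.3.3 with 4 group means, an intensity trend and Benjamini-Hochberg adjustment over 11713 genes. A call had an adjusted p below 0.05. The added 0.1 makes fold changes of low genes smaller. In the deposited table, 20 lines only continued an annotation and were skipped.

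Depth was estimated from FPKM steps with GENCODE v44 lengths. Besides the 10 genes, up to 4 genes per list and comparison with the smallest adjusted p and the 3 most similar patterns per tested gene are named. SERPINA3 at 24 h, FGA, FGB, ITIH1 and ITIH3 at 144 h and the single stellate cell markers were chosen after their values were seen. So were the ligands below the filter, the genes compared in level and those plotted. An item that meets this rule is not reported here. The members and lists were chosen with earlier results of these data known. Alternatives changed the pseudocount, filter, scaling, trend, libraries, block and call, and the sum of HP and HPR was added after seeing the data. Plots used matplotlib 3.10.9 (Python 3.11.15). Replicates come from independent experiments per the study's description.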

Additional observations from a re-analysis of the deposited data

Results flagged for a closer look

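The effect of TPN differed between exposure times in 4 of the acute phase genes, by a test of the difference itself in the limma model. The log2 fold change at 144 h exceeded that at 24 h by 1.43 for HP (adjusted p = 5e-07), by 1.26 for HPX (adjusted p = 0.00266), by 0.43 for CP (adjusted p = 4.9e-05) and by 0.50 for SAA4 (adjusted p = 0.0466). Of all genes tested, 14.1% were called higher in this test. The SAA4 call is the weak one, since it was lost in 13 of 21 alternatives (adjusted p from 0.00356 to 0.111). For HP the sign turned, from lower with TPN in 3 of 3 libraries at 24 h to higher in 3 of 3 at 144 h.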

How the results depend on the processing

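Over the 6 tested genes and 4 comparisons, 522 alternative values were computed, of which 483 kept their direction and their side of the threshold, 19 no longer passed the test, 4 newly passed it and 16 changed sign. Among alternatives that kept the call at an adjusted p below 0.05, the calls for HP, HPX and CP at 144 h and for the difference between the times kept both, and so did HP at 24 h and the 6 calls over time. The calls lost among these alternatives were those of ORM1 at 144 h and of SAA4 in the difference, and ORM1 newly passed in the difference with quantile normalization (0.15, limma adjusted p = 0.0222). With the fold-change threshold, the count of genes lower at 24 h went from 1 to 0, and those higher at 144 h and in the difference each went from 4 to 2, since HP at 24 h, CP and ORM1 at 144 h and CP and SAA4 in the difference lie below it. Of the 5 falls over time, 4 passed it, without ORM1. With 1 added in place of 0.1, HPX was 0.35 at 144 h, 0.68 in the difference and -1.002 over time. With single libraries left out, the count lower at 24 h was 1 to 2, that higher at 144 h 3 to 4 and that higher in the difference 3 to 4. All sign changes were in values close to 0. ORM2 became -0.0071 at 24 h and -0.0129 at 144 h with equal library totals and, with quantile normalization, -0.0023 at 24 h and -0.0303 at 144 h. With single libraries left out, ORM2 ran from -0.0106 to 0.0146 at 24 h, from -0.0518 to 0.0332 at 144 h and from -0.0542 to 0.0308 in the difference, and ORM1 from -0.0242 to 0.0067 at 24 h. The sum of ORM1 and ORM2 at 24 h was 0.0187 with quantile normalization and -0.0180 to 0.0071 with libraries left out, and at 144 h it was 0.1174 with quantile normalization (limma adjusted p = 0.0184). The ORM1 share at 24 h changed by -0.386 to 0.102 percentage points with libraries left out. The cause of these moves was not tested. HPX gave no value with a filter of at least 5 FPKM.

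Deviations of samples with the same replicate number correlated weakly. The correlations were -0.083 to 0.103 at 24 h, -0.013 to 0.056 at 144 h and 0.020 to 0.151 over time. In each comparison, 2 of 3 samples matched best with their own number. With 3 samples per group, these values cannot decide whether samples with equal numbers come from the same experiment. A replicate block left every call of the 6 genes as it was except the difference for SAA4 (0.50, limma adjusted p = 0.0602). At the estimated depth, genes below the filter rest on few fragments.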
